A study of Mus musculus with 34 samples.

Results

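The genes described here are 37 genes that interferons switch on in mouse cells, followed in the thoracic spinal cord of mice before and after a contusion. They were chosen by name, and a probe set counted for a gene when that gene was its only symbol on the platform. Of several such probe sets, the one brightest on average was kept for the gene. In this way 35 of the 37 genes had a value, of 18193 genes read by the arrays. A filter on low values (4 or more on the log2 scale in 4 or more arrays) kept 31 of them, of 11992 genes tested. Isg15 had a probe set only in common with another gene, and Ifi44 has no probe set listed, so neither was analysed here.

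The mice were trkB.T1 wild type (WT) or trkB.T1 knockout (KO), on a C57BL/6J background of more than N20 generations, 8 to 12 weeks of age. TrkB, the product of Ntrk2, binds brain-derived neurotrophic factor. Its truncated form trkB.T1 has no kinase domain. The sources used here name no driver or cell type for the deletion. Cords came from a control group labelled sham (4 WT and 4 KO), at day 1 (5 WT and 4 KO), at day 3 (4 WT and 5 KO) and at day 7 (4 WT and 4 KO) after a moderate contusion, 34 Affymetrix arrays of total RNA in all. Description codes of the sham arrays begin with Nav, so whether those animals were operated on is not settled by the labels. The design asks how the cord responds to injury over a week and whether loss of trkB.T1 changes that response.

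Values are GCRMA log2 signals, so a difference of 1 is a 2-fold change. The lowest value in the table is 2.17, and a group mean under 4 lies near that floor, so that a difference from such a group is a lower bound. This held for 8 of the 31 tested genes in sham WT cord and for 8 in sham KO cord, and some of these passed the filter only through injured cords. Counts over the tested genes are therefore descriptions of the genes that could be read. Levels of different genes are not compared, since signals of different probe sets share no scale, and where differences are set side by side, those from a group near the floor are lower bounds.

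Interferons are cytokines that cells release on sensing viral or misplaced nucleic acid, or, for interferon gamma, that activated lymphocytes release. Type I interferons bind their receptor and activate a complex with STAT2 and IRF9 that binds the interferon-stimulated response element (ISRE). Interferon gamma acts on genes through the gamma-activated site (GAS). The genes switched on this way include sensors of viral RNA, enzymes and binding proteins that block viral replication, large GTPases that attack the vacuoles of intracellular parasites, and chemokines that draw T cells. In the central nervous system, microglia, astrocytes, endothelial cells and infiltrating leukocytes can all express them.

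Some facts of the whole series bear on the values. All 34 arrays were nearest to the mean of their own time point, and 21 to that of their own group. In another label field, day 1 WT replicates 1 and 2 are given as day 7 and sham; their titles were followed. On the 2 Ntrk2 probe sets whose signal is low in KO, WT arrays read at least 8.645 and KO arrays at most 4.94, except that the library labelled sham KO replicate 2 read 9.46 and 8.59. In that library the Ntrk2 signal thus goes against the label, and counts, medians and calls that use sham KO were computed with and without it. Tissue is a mixture of cells, so fewer cells of a type and less RNA per cell cannot be told apart. The labels call the arrays biological replicates.

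Most of these genes were higher after injury in cord of both genotypes, at day 7 as at day 1. In WT, 24 of the 31 tested genes were higher at day 1 than in sham and 1 was lower, where 24% and 28.9% of all tested probe sets were. Their median difference was 1.62, against -0.04 over all tested probe sets. At day 3, 22 were higher and 1 lower (26.1% and 35.7% of all), with a median of 1.40 against -0.07. At day 7, 25 were higher and 1 lower (21.8% and 31.7% of all), with a median of 1.82 against -0.08. These 3 comparisons share the sham WT arrays. The 1 lower gene was Cmpk2 each time.

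KO cord showed the same main direction. At day 1, 28 of the 31 were higher and none lower (20.9% and 23.7% of all tested probe sets), with a median of 2.67 against -0.04. At day 3, 26 were higher and 1, again Cmpk2, lower (28.2% and 36.7% of all), with a median of 1.82 against -0.07. At day 7, 27 were higher and none lower (19.8% and 27.4% of all), with a median of 2.29 against -0.07. Without the library labelled sham KO replicate 2 these were 28 and 0, 25 and 1, and 27 and 0, with medians of 2.56, 1.68 and 2.07. Of the calls of single genes in these 3 comparisons, 1 was then lost, that of Ddx58 at day 3 (0.84, adjusted p = 0.05305), and none was gained. The largest shift of any gene's difference was 0.36.

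Markers of several cell types and a measure of RNA quality moved over the same groups. All 8 monocyte and macrophage markers rose in WT at each day, and 7, 8 and 7 did in KO. Their array mean was 4.41 to 4.65 in sham WT and 8.22 to 9.06, 9.02 to 9.99 and 9.05 to 9.84 at days 1, 3 and 7. Of 6 endothelial markers, 5, 5 and 1 rose in WT and 2, 4 and 1 in KO, with WT rises at days 1 and 3 of 2.37 and 3.39 for Cdh5 and of 2.43 and 2.79 for Pecam1. Of 7 homeostatic microglia markers, 1, 4 and 5 rose and 2, 1 and 0 fell in WT, and P2ry12 fell by 2.80 at day 1. Of 8 neuron markers, 5, 8 and 8 fell in WT and 3, 8 and 6 in KO. Of 9 skeletal muscle markers, none passed in WT, while 9, 0 and 8 fell in KO, where their array mean was 8.26 to 11.24 in sham and 3.32 to 7.12, 4.77 to 14.03 and 4.23 to 5.70 after injury. The 3′ minus 5′ difference of the actin control probe sets, a measure of RNA quality, was 1.80 to 2.05 in sham WT and 1.61 to 1.78, 1.39 to 1.54 and 1.45 to 2.02 at days 1, 3 and 7. In KO it was 1.99 to 2.14, 1.75 to 1.82, 1.22 to 1.81 and 1.88 to 1.99. The part of these in the rise of the interferon-induced genes was not tested.

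**Figure D1:**
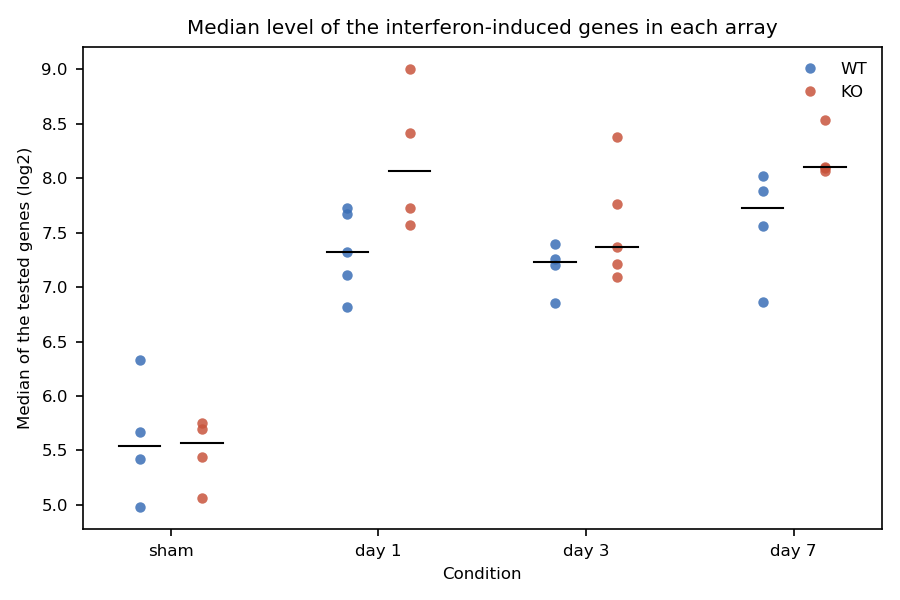
Median log2 value of the 31 tested interferon-induced genes in each of the 34 arrays, by condition (x axis) and genotype (colour); points are arrays and black lines the group medians. Sham arrays lie between 4.98 and 6.33, and injured arrays between 6.82 and 9.01.

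Array by array, the median over the 31 genes read 4.98, 5.42, 6.33 and 5.67 in sham WT. It read 7.73, 7.33, 6.82, 7.67 and 7.12 at day 1, 7.20, 6.85, 7.26 and 7.39 at day 3, and 7.56, 6.87, 7.89 and 8.02 at day 7. No injured WT array was as low as the highest sham WT array. In KO the medians read 5.44, 5.06, 5.75 and 5.70 in sham and 9.01, 7.72, 7.57 and 8.42 at day 1. They were 7.77, 7.09, 8.38, 7.37 and 7.21 at day 3, and 8.11, 8.10, 8.06 and 8.53 at day 7. Day 1 KO replicate 1 had the highest median of all arrays, and day 3 KO replicate 3 stood above the other day 3 arrays.

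The time of the highest group mean differed between the genotypes. In WT it was day 7 for 21 of the 31 genes, day 1 for 9 and sham for 1. In KO it was day 1 for 19, day 7 for 9 and day 3 for 3. These are orders of means with no test, and some are near ties. The KO rises of Ifi35 over sham, for example, were 2.42, 2.41 and 2.40 at days 1, 3 and 7. Day 1 KO replicate 1 had the highest member median of all arrays, and the orders were not recomputed without it. Between days 1 and 3 in WT, 8 of the 31 genes fell and none rose (15.4% and 11.7% of all tested probe sets), with a median of -0.18 against -0.04. Between days 3 and 7 in WT, 4 rose and none fell (8.64% and 10.5% of all), with a median of 0.37 against 0.01. In KO, 14 fell and none rose from day 1 to 3 (27.2% and 19.4% of all), with a median of -0.73 against -0.06, and 9 rose and none fell from day 3 to 7 (16.2% and 14.2% of all), with a median of 0.40 against 0.02. The share of genes that fell from day 1 to 3 in WT was thus 25.8%, against 15.4% of all probe sets, and in KO 45.2%, against 27.2%.

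Single libraries move the smaller of these counts. The count that fell in WT from day 1 to 3 was 5 without day 3 WT replicate 1, and 4 without day 3 WT replicate 3, without day 1 WT replicate 5, or without both arrays of conflicting labels. The count that rose in WT from day 3 to 7 was 2 without day 3 WT replicate 3, day 7 WT replicate 3 or day 7 WT replicate 4. In KO the count that rose was 5 without day 3 KO replicate 4 and 3 without day 7 KO replicate 4. The medians moved too. For day 3 against day 1 they ran from -0.31 (without day 3 WT replicate 2) to -0.09 (without day 1 WT replicate 1) in WT, and from -1.16 (without day 1 KO replicate 2) to -0.47 (without day 1 KO replicate 1) in KO. For day 7 against day 3 they ran from 0.22 (without day 7 WT replicate 4) to 0.56 (without day 7 WT replicate 2) in WT, and from 0.23 (without day 3 KO replicate 5) to 0.65 (without day 3 KO replicate 3) in KO.

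**Figure D2:**
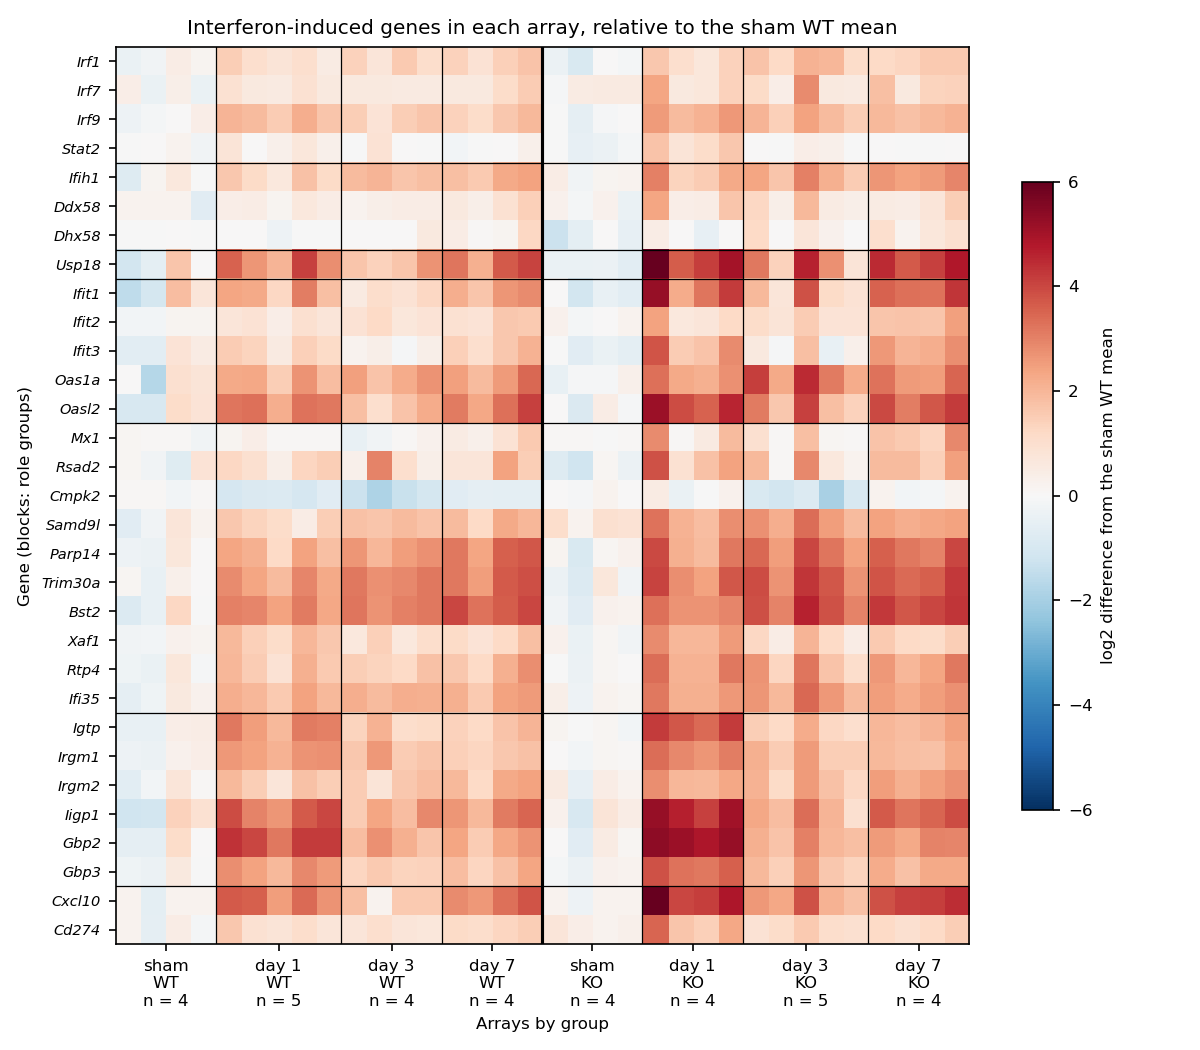
Log2 difference of each array (columns, by group) from the sham WT mean for the 31 tested interferon-induced genes (rows, in blocks by role); red is higher and blue lower, on a scale from -6 to 6. Nearly all rows turn red after injury, Cmpk2 turns blue in WT, and most rows of the GTPase block are deepest at day 1.

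The GTPases of cell-autonomous immunity include enzymes that assemble on pathogen vacuoles and break them up. All 6 tested were higher than sham at each day in both genotypes, with WT medians of 2.63, 1.65 and 1.89 and KO medians of 3.66, 1.81 and 2.20 at days 1, 3 and 7 (3.59, 1.66 and 2.05 without the library labelled sham KO replicate 2). Of all tested probe sets, 24%, 26.1% and 21.8% were higher than sham in WT at these days, and 20.9%, 28.2% and 19.8% in KO. Gbp2 and Gbp3 are guanylate-binding proteins on chromosome 3. Igtp (Irgm3), Irgm1 and Irgm2, on chromosome 11, and Iigp1 are immunity-related GTPases. From day 1 to 3, 5 of the 6 fell in each genotype, all but Irgm2, where 15.4% of all tested probe sets fell in WT and 27.2% in KO. In WT the fall of Irgm1 (-0.68) was lost without day 1 WT replicate 5 (-0.62) or day 3 WT replicates 1 (-0.60), 3 (-0.57) or 4 (-0.61). This course and the others named here were told apart after the values were seen and have no test of their own.

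Promoter sequence was searched for every listed gene that had it, whatever its course. Of the 35 genes with a value, 27 had a RefSeq promoter of assembly GRCm38.p6. The 250 bases before each start were searched on both strands for GAAANNGAAA as the ISRE and for TTCNNNGAA as the GAS, where the motifs may overlap. A gene counted once, when any of its starts had a match. An ISRE match stood in 13 of the 27 (48.1%), against 936 of 27025 genes with a promoter (3.46%). A GAS match stood in 6 (22.2%), against 2197 (8.13%), and 4 had both (14.8%, against 0.459%). A match describes letters and is not a bound site. For the GTPases these stretches lie just before the start of Gbp2 (chr3:142620579-142620662, plus strand), Igtp (chr11:58199497-58199555, plus strand) and Irgm2 (chr11:58214888-58214976, plus strand). They are shown because Igtp and Irgm2 carry nearly the same element, and are written 5′ to 3′ on the gene's strand with the motif letters in capitals.
Gbp2: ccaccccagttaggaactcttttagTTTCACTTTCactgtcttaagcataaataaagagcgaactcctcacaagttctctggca
Igtp: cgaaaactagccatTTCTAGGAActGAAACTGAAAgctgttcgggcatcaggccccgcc
Irgm2: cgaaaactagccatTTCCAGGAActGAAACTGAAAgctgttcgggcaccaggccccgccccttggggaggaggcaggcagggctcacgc
Gbp2 has an ISRE match alone, and Igtp and Irgm2 a GAS match that is followed by an ISRE match. Over the 59 bases of the Igtp stretch, set against the first 59 of the Irgm2 stretch, the letters differ at 2 bases. These stretches begin 59 bases before the start in Igtp and 89 in Irgm2, and the rest of the searched bases was not compared.

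Gbp2 (probe set 1435906_x_at) read 5.59, 5.60, 7.25 and 6.15 in sham WT and 10.50, 10.14, 9.33, 10.33 and 10.34 at day 1. It then read 7.99, 8.88, 8.29 and 7.79 at day 3 and 8.54, 7.68, 8.46 and 8.83 at day 7. Every day 1 array stood above every other WT array, and the rise over sham was 3.98 ± 0.32 (SE, adjusted p = 3.299e-11). The fall from day 1 to day 3 was -1.89 ± 0.32 (adjusted p = 5.304e-05), and day 7 differed from day 3 by 0.14 ± 0.34 (adjusted p = 0.8088). In KO, Gbp2 read 6.19, 5.48, 6.64 and 6.26 in sham, 11.49, 11.30, 11.02 and 11.37 at day 1, 8.26, 7.86, 9.18, 8.15 and 7.96 at day 3 and 8.71, 8.42, 9.12 and 9.10 at day 7. Its KO rise at day 1 was 5.15 ± 0.34, about 35.6-fold (4.93 when the library labelled sham KO replicate 2 was left out), and its fall to day 3 was -3.01 ± 0.32. A further Gbp2 probe set, 1418240_at, gave a WT rise of 4.50 and a KO rise of 5.16 at day 1.

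Igtp (probe set 1417141_at) had a like course. WT arrays read 5.86, 5.85, 6.69 and 6.75 in sham, 9.43, 8.80, 8.21, 9.39 and 9.32 at day 1, 7.61, 8.36, 7.33 and 7.43 at day 3 and 7.68, 7.48, 8.01 and 8.31 at day 7. KO arrays read 6.45, 6.27, 6.42 and 6.11 in sham, 10.49, 10.03, 9.71 and 10.46 at day 1, 7.76, 7.50, 8.49, 7.53 and 7.31 at day 3 and 8.29, 8.14, 8.31 and 8.73 at day 7. All 4 day 1 KO arrays were above all 5 day 1 WT arrays, while the genotypes overlapped in sham, at day 3 and at day 7. Igtp rose by 2.75 ± 0.27 in WT and 3.86 ± 0.28 in KO at day 1, and fell by 1.35 and 2.45 to day 3. The KO rise became 3.85 when the library labelled sham KO replicate 2 was left out.

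Irgm2 (probe set 1417793_at) did not pass the test for a fall from day 1 to 3. WT arrays read 4.99, 5.46, 6.36 and 5.67 in sham, 7.57, 7.09, 6.35, 7.40 and 7.09 at day 1, 7.12, 6.40, 7.26 and 7.48 at day 3 and 7.56, 6.81, 7.87 and 8.02 at day 7. KO arrays read 6.14, 5.11, 6.08 and 5.81 in sham, 8.41, 7.61, 7.57 and 7.95 at day 1, 7.70, 6.75, 8.18, 7.37 and 6.86 at day 3 and 8.11, 7.76, 8.06 and 8.37 at day 7. Day 1 and day 3 arrays overlapped in both genotypes, and the step between them was -0.03 ± 0.31 in WT (adjusted p = 0.9512) and -0.51 ± 0.31 in KO (adjusted p = 0.1851). Against sham, Irgm2 rose by 1.48, 1.45 and 1.95 in WT and by 2.10, 1.59 and 2.29 in KO. Igtp and Irgm2 gave WT steps from day 1 to 3 of -1.35 and -0.03, and the difference between these steps was not tested. The stretches compared above are only part of their promoters, so these steps are not set against sequence. Irgm family transcripts are close in sequence, and how far their probe sets share signal was not tested.

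The other 3 GTPases also had their highest mean at day 1 in both genotypes. Iigp1 rose by 3.45 ± 0.49, 2.15 ± 0.51 and 2.79 ± 0.51 in WT at days 1, 3 and 7, and by 4.64, 2.00 and 3.46 in KO. It fell from day 1 to 3 in both genotypes and rose again from day 3 to 7 in KO (1.46, adjusted p = 0.02405). Its WT fall of 1.29 was lost in 6 of 9 fits that left out 1 array, to between -1.36 and -1.08, and was kept without day 1 WT replicate 2 or 3 or day 3 WT replicate 4. The KO rise from day 3 was lost without day 3 KO replicate 5 (1.17) or day 7 KO replicate 1 (1.42) or 4 (1.34). Gbp3 rose by 2.51, 1.40 and 1.82 in WT and 3.46, 1.80 and 2.12 in KO. Irgm1 rose by 2.52, 1.84 and 1.52 in WT and 2.98, 1.82 and 1.94 in KO.

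**Figure D3:**
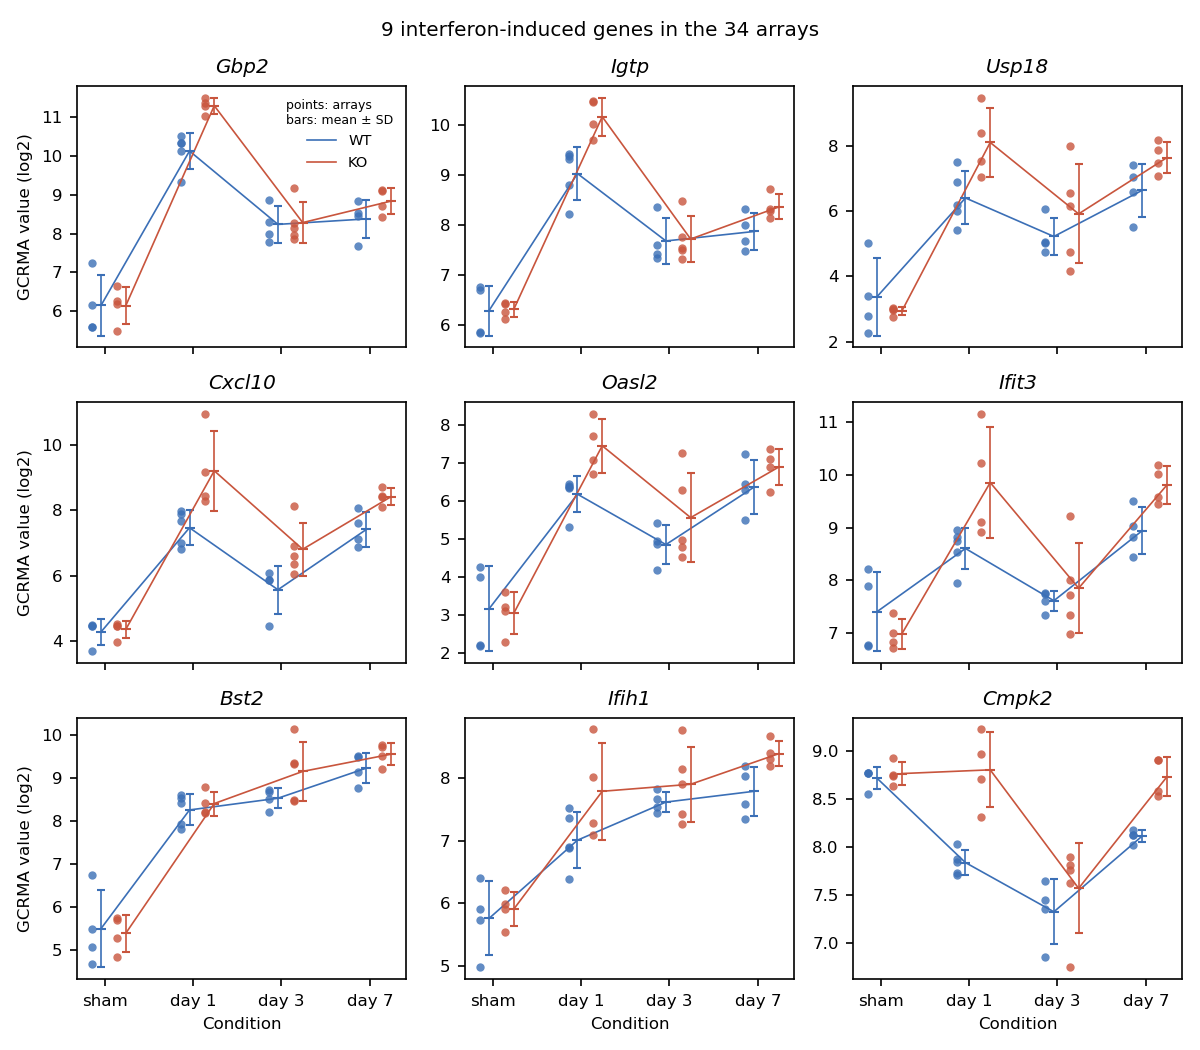
GCRMA log2 values of 9 interferon-induced genes in all 34 arrays, in WT (blue) and KO (red) sham cord and at days 1, 3 and 7; points are arrays, horizontal bars with whiskers are means ± SD, and y axes differ between panels and do not start at 0. Gbp2 and Igtp are highest at day 1, Usp18, Cxcl10, Oasl2 and Ifit3 dip at day 3, Bst2 and Ifih1 have their highest mean at day 7, and Cmpk2 is lower after injury in WT.

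Another course, with a mean that dipped at day 3, was shared by Cxcl10, Usp18, Oasl2, Ifit1 and Ifit3. For Usp18 and Ifit1 no step between injured days passed the test in WT. Iigp1, described above with the GTPases, also had its lowest mean after injury at day 3 in both genotypes, so the courses overlap. Cmpk2, described below, also had its lowest mean at day 3, without a called rise over sham. Cxcl10 encodes a chemokine for CXCR3-bearing T and NK cells. Its promoter stretch and those of Ifit1 and Ifit3, which encode proteins that bind foreign RNA, are shown as examples of genes with this course (chr5:92349028-92349127, minus strand for Cxcl10, chr19:34640760-34640859, plus strand for Ifit1 and chr19:34583348-34583447, plus strand for Ifit3).
Cxcl10: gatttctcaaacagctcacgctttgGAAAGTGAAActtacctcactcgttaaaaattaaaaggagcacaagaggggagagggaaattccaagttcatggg
Ifit1: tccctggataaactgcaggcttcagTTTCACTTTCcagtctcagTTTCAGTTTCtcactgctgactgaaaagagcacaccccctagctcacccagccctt
Ifit3: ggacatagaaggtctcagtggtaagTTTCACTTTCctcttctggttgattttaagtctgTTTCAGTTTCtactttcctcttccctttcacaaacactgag
Each holds ISRE matches, 1 in Cxcl10 and 2 in each Ifit gene, and no GAS match in the stretch.

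Cxcl10 (probe set 1418930_at) read 4.50, 3.69, 4.48 and 4.48 in sham WT and 7.97, 7.88, 6.82, 7.67 and 6.98 at day 1. At day 3 it read 6.07, 4.48, 5.88 and 5.86, and at day 7 7.12, 6.87, 7.61 and 8.05. All day 3 WT arrays were below all arrays of days 1 and 7, and day 3 replicate 2 was within the sham range. The gene rose by 3.18 ± 0.43 at day 1 (adjusted p = 5.859e-07), fell by 1.89 to day 3 (adjusted p = 0.001476) and rose by 1.84 ± 0.45 from day 3 to 7 (adjusted p = 0.004124). In KO it read 4.48, 3.99, 4.52 and 4.48 in sham and 10.94, 8.28, 8.43 and 9.16 at day 1. It read 6.90, 6.59, 8.13, 6.36 and 6.06 at day 3 and 8.11, 8.39, 8.43 and 8.72 at day 7. The KO rises over sham were 4.84, 2.44 and 4.05, with a fall of 2.39 to day 3 and a rise of 1.61 to day 7. The KO rises became 4.71, 2.32 and 3.92 when the library labelled sham KO replicate 2 was left out.

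Usp18 (probe set 1418191_at) encodes the protease that removes ISG15 from proteins and damps type I interferon receptor signalling. It read 2.28, 2.79, 5.03 and 3.41 in sham WT, 6.90, 6.01, 5.42, 7.50 and 6.17 at day 1, 5.03, 4.75, 5.04 and 6.06 at day 3 and 6.58, 5.52, 7.04 and 7.41 at day 7. In KO it read 3.00, 2.97, 3.02 and 2.75 in sham, 9.46, 7.03, 7.52 and 8.38 at day 1, 6.54, 4.74, 7.98, 6.14 and 4.16 at day 3 and 7.86, 7.07, 7.46 and 8.17 at day 7. The sham means lie near the floor, so the rises of at least 3.02, 1.84 and 3.26 in WT and 5.17, 2.98 and 4.71 in KO are lower bounds. The KO rises became 5.18, 2.99 and 4.72 when the library labelled sham KO replicate 2 was left out. The WT rise at day 3 was lost without sham WT replicate 1 (1.48) or day 3 WT replicate 4 (1.56). Steps between injured days passed the test in KO (-2.19 ± 0.60 and 1.73 ± 0.60), but the second was lost in 6 of 9 fits that left out 1 array (1.29 to 1.79) and kept without day 3 KO replicate 1 or 3 or day 7 KO replicate 2. In WT they were -1.18 ± 0.60 (adjusted p = 0.1474) and 1.42 ± 0.64 (adjusted p = 0.1198), and the difference between the genotypes' steps was not tested.

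The IFIT and OAS families block viral RNA, the former by binding it and the OAS enzymes by making a messenger that activates RNase L. Of the 5 tested, all were higher than sham at day 1 and day 7 in both genotypes, and 3 in WT and 4 in KO at day 3. The shares of all tested probe sets that were higher at days 1, 3 and 7 were 24%, 26.1% and 21.8% in WT. In KO they were 20.9%, 28.2% and 19.8%. Oasl2 (probe set 1453196_a_at) read 2.20, 2.17, 4.24 and 4.00 in sham WT, 6.37, 6.44, 5.32, 6.39 and 6.33 at day 1, 4.95, 4.17, 4.86 and 5.40 at day 3 and 6.28, 5.50, 6.44 and 7.23 at day 7. KO arrays read 3.19, 2.27, 3.60 and 3.08 in sham, 8.29, 7.08, 6.69 and 7.72 at day 1, 6.29, 4.77, 7.24, 4.96 and 4.51 at day 3 and 7.09, 6.23, 6.88 and 7.36 at day 7. Sham WT replicates 3 and 4 were near the lowest day 3 value, while every array of day 1 and day 7 was above sham. Oasl2 fell by 1.33 from day 1 to 3 and rose by 1.52 ± 0.52 from day 3 to 7 in WT, and by 1.89 and 1.34 in KO. Leaving out 1 array mostly ended these calls. The WT fall was kept without day 1 WT replicate 3 or day 3 WT replicate 4 and lost in the other 7 fits (-1.36 to -1.10). The WT rise was kept without day 3 WT replicate 4 or day 7 WT replicate 2 and lost in the other 6 (1.23 to 1.55). The KO rise was kept without day 3 KO replicate 1 or 3 or day 7 KO replicate 2 and lost in the other 6 (1.08 to 1.34).

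Ifit3 (probe set 1449025_at) had day 3 arrays that overlapped the sham range. WT arrays read 6.77, 6.76, 8.21 and 7.89 in sham, 8.95, 8.75, 7.96, 8.83 and 8.55 at day 1, 7.62, 7.74, 7.34 and 7.76 at day 3 and 8.81, 8.44, 9.03 and 9.50 at day 7. KO arrays read 7.38, 6.71, 7.00 and 6.83 in sham, 11.16, 8.92, 9.11 and 10.23 at day 1, 8.00, 7.34, 9.23, 6.98 and 7.72 at day 3 and 10.03, 9.44, 9.58 and 10.20 at day 7. Day 3 minus sham was 0.21 ± 0.42 in WT (adjusted p = 0.682) and 0.87 ± 0.40 in KO (adjusted p = 0.05553), with overlapping arrays. The rises at day 1 and day 7 were 1.20 and 1.54 in WT and 2.87 and 2.83 in KO (2.78 and 2.74 when the library labelled sham KO replicate 2 was left out). The WT rise at day 1 was lost without sham WT replicate 1 (0.99) or 2 (0.98). Ifit1 rose in KO by at least 4.24, 2.24 and 4.14, with a fall of 2.01 to day 3 and a rise of 1.90 to day 7, and in WT it rose by 2.14 at day 1 and 2.33 at day 7. The KO fall of Ifit1 was lost without day 1 KO replicate 1 (-1.50), and its KO rise to day 7 without day 3 KO replicate 4 (1.77) or day 7 KO replicate 4 (1.67). Ifit3 lies beside a near copy, Ifit3b, and the share of its signal that comes from that copy is not known here.

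Ifit2 (probe set 1418293_at) read 7.60, 7.60, 7.94 and 7.94 in sham WT, 8.48, 8.65, 8.18, 8.74 and 8.48 at day 1, 8.65, 8.96, 8.45 and 8.59 at day 3 and 8.71, 8.60, 9.38 and 9.32 at day 7. In KO it read 8.03, 7.64, 7.79 and 7.96 in sham, 10.18, 8.40, 8.52 and 8.96 at day 1, 8.88, 8.56, 9.30, 8.59 and 8.61 at day 3 and 9.42, 9.49, 9.44 and 10.23 at day 7. Sham and injured arrays did not overlap in either genotype, and the WT mean did not dip at day 3. The WT rises were 0.74 ± 0.25, 0.89 ± 0.26 and 1.23 ± 0.26, and in KO day 7 was above day 3 by 0.85 ± 0.25 (adjusted p = 0.01102), a call lost without day 7 KO replicate 4 (0.66).

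For 15 of the 31 genes no step between injured days passed the test in either genotype. These were Bst2, Trim30a, Parp14, Oas1a, Ifi35, Rsad2, Rtp4, Samd9l, the RNA sensors Ifih1, Ddx58 and Dhx58, the factors Irf1, Irf7 and Irf9, and Irgm2. A step that misses the test does not show a constant level. At any single step between injured days, 8.64% to 27.2% of all tested probe sets passed in a given direction. The share of all probe sets with no called step was not counted, so 15 of 31 is not read as particular to these genes. Promoter stretches of Bst2 (chr8:71537528-71537627, minus strand), Oas1a (chr5:120907526-120907570, minus strand) and Trim30a (chr7:104465194-104465254, minus strand) are shown against those of the genes that dipped.
Bst2: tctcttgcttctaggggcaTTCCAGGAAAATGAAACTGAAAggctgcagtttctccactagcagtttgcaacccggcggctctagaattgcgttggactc
Oas1a: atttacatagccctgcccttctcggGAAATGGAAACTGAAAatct
Trim30a: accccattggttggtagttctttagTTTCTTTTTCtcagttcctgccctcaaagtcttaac
In the stretches shown, Bst2 holds a GAS match and 2 overlapping ISRE matches. Oas1a holds 2 overlapping ISRE matches there, and Trim30a 1 ISRE match made mostly of T. A GAS match of Oas1a lies in the 250 bases searched, outside its stretch. Over the whole 250 bases, 12 of these 15 genes had a promoter in the table, of which 5 held an ISRE match and 4 a GAS match. Of the 16 genes with a called step 13 had one, and 8 held an ISRE match and 2 a GAS match.

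Bst2 (probe set 1424921_at) encodes tetherin, which holds budding virus particles at the cell surface. It read 4.67, 5.06, 6.75 and 5.49 in sham WT, 8.53, 8.42, 7.93, 8.59 and 7.81 at day 1, 8.71, 8.20, 8.52 and 8.68 at day 3 and 9.52, 8.76, 9.14 and 9.49 at day 7. KO arrays read 5.26, 4.83, 5.75 and 5.70 in sham, 8.79, 8.21, 8.19 and 8.42 at day 1, 9.34, 8.49, 10.13, 9.33 and 8.47 at day 3 and 9.73, 9.20, 9.52 and 9.76 at day 7. Every injured array stood above every sham array of its genotype, and the highest WT mean was at day 7. The rises were 2.76 ± 0.32, 3.03 ± 0.34 and 3.73 ± 0.34 in WT and 3.02 ± 0.34, 3.77 ± 0.32 and 4.17 ± 0.34 in KO, the last about 18.0-fold. The KO rises became 2.83, 3.58 and 3.98 when the library labelled sham KO replicate 2 was left out. At day 1, KO minus WT was 0.15 ± 0.32 (adjusted p = 0.9437).

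Trim30a, a TRIM-family regulator of inflammatory signalling, rose by 2.46, 2.99 and 3.29 in WT and by 3.43, 3.64 and 3.92 in KO. Parp14, an ADP-ribosyltransferase, rose by at least 1.99, 2.47 and 3.21 in WT and 2.88, 3.22 and 3.53 in KO. Oas1a rose by 2.12, 2.27 and 2.61 in WT and 2.67, 3.31 and 3.03 in KO; its family holds close copies whose signal may be shared. Ifi35, a partner of Nmi, rose by 2.03, 2.10 and 2.17 in WT and 2.42, 2.41 and 2.40 in KO.

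Among the RNA sensors, Ifih1 (MDA5) rose at each day in both genotypes. Ifih1 (probe set 1426276_at) read 4.98, 5.91, 6.40 and 5.74 in sham WT, 7.36, 6.89, 6.38, 7.51 and 6.89 at day 1, 7.66, 7.82, 7.43 and 7.54 at day 3 and 7.58, 7.35, 8.03 and 8.19 at day 7. KO arrays read 6.20, 5.54, 5.90 and 5.98 in sham, 8.77, 7.08, 7.27 and 8.02 at day 1, 8.14, 7.43, 8.76, 7.90 and 7.26 at day 3 and 8.39, 8.19, 8.31 and 8.66 at day 7. The lowest day 1 WT array was within the sham range, and days 3 and 7 were clear of it. WT rises were 1.25 ± 0.31, 1.86 ± 0.32 and 2.03 ± 0.32, and KO rises 1.88, 1.99 and 2.48 (1.76, 1.87 and 2.36 without the library labelled sham KO replicate 2).

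Dhx58 (LGP2, probe set 1451426_at), which tunes the other sensors, stayed near the floor in most WT arrays. It reached 4 in 9 arrays, all of injured cord and most of them KO. The injured KO arrays thus helped it pass the filter on low values, and its differences between groups are given as descriptions. It read 3.72, 3.72, 3.73 and 3.72 in sham WT, 3.73, 3.73, 3.41, 3.72 and 3.72 at day 1, 3.73, 3.74, 3.74 and 4.29 at day 3 and 4.17, 3.80, 3.91 and 4.95 at day 7. KO arrays read 2.43, 3.13, 3.73 and 3.24 in sham, 4.17, 3.74, 3.23 and 3.73 at day 1, 4.91, 3.74, 4.44, 3.99 and 3.77 at day 3 and 4.74, 3.93, 4.40 and 4.70 at day 7. Sham KO replicates 1 and 4, and the library labelled sham KO replicate 2, read below all sham WT arrays. Dhx58 passed the test in KO at day 3 (at least 1.04 ± 0.25) and day 7 (at least 1.31 ± 0.26), with the same values without that library, and the WT differences, which did not pass, were -0.06, 0.15 and 0.48. Ddx58 (RIG-I, probe set 1436562_at) differed from sham by 0.41, 0.37 and 0.83 in WT, none past the test. It rose by 1.21 and 0.88 in KO at days 1 and 3. The first call was lost without day 1 KO replicate 1 (0.83), and the second without day 3 KO replicate 1 (0.79) or 3 (0.61) or sham KO replicate 4 (0.75), and also when the library labelled sham KO replicate 2 was left out (0.84). At day 7 the KO difference of Ddx58 was 0.77 ± 0.36 (adjusted p = 0.07459). A further Ddx58 probe set, 1456890_at, passed at day 7 in WT (1.32, adjusted p = 0.007333) and KO (1.68, adjusted p = 0.00124). At days 1 and 3 it gave 0.35 and 0.49 in WT, which did not pass, and 1.53 and 1.01 in KO, which did.

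Among the signalling and transcription factors, Irf9 and Irf1 rose, and Irf7 and Stat2 stayed near the floor in WT. IRF9 is the DNA-binding part of the complex that reads the ISRE. Irf9 (probe set 1421322_a_at) read 5.45, 5.61, 5.75 and 6.15 in sham WT, 7.77, 7.65, 7.25, 7.90 and 7.42 at day 1, 7.20, 6.58, 7.21 and 7.39 at day 3 and 7.13, 6.86, 7.37 and 7.66 at day 7. KO arrays read 5.71, 5.22, 5.69 and 5.75 in sham, 8.31, 7.62, 7.84 and 8.36 at day 1, 7.77, 7.15, 8.14, 7.65 and 7.21 at day 3 and 7.70, 7.48, 7.67 and 7.82 at day 7. Sham and injured arrays did not overlap, and the rises were 1.86 ± 0.20, 1.36 ± 0.22 and 1.52 ± 0.22 in WT and 2.44 ± 0.22, 1.99 ± 0.20 and 2.08 ± 0.22 in KO.

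IRF1 is a factor that interferon gamma induces through a GAS. Irf1 (probe set 1448436_a_at) read 4.52, 4.71, 5.36 and 5.09 in sham WT, 6.38, 5.95, 5.68, 5.91 and 5.43 at day 1, 6.32, 5.65, 6.50 and 5.99 at day 3 and 6.33, 5.78, 6.37 and 6.62 at day 7. KO arrays read 4.59, 4.00, 4.95 and 4.79 in sham, 6.53, 5.94, 5.61 and 6.29 at day 1, 6.63, 6.11, 7.03, 6.93 and 6.01 at day 3 and 6.11, 6.22, 6.51 and 6.49 at day 7. Every injured array of a genotype was above its sham arrays. The rises were 0.95, 1.19 and 1.35 in WT and 1.51, 1.96 and 1.75 in KO. The promoter of Irf1 (chr11:53769899-53769998, plus strand) is shown because it holds a GAS match and no ISRE match.
Irf1: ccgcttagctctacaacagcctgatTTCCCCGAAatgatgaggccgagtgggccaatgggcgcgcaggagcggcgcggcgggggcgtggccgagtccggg

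STAT2 works with IRF9 at the ISRE, and Stat2 is one of the genes that differed between the genotypes at day 1. Its promoter stretch lies at chr10:128270251-128270350, plus strand and holds 1 ISRE match.
Stat2: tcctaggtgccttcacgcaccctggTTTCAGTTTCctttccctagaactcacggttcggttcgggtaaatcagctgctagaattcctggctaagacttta
Stat2 (probe set 1421911_at) read 3.47, 3.47, 3.70 and 3.25 in sham WT, 4.23, 3.48, 3.76, 4.14 and 3.76 at day 1, 3.46, 4.36, 3.48 and 3.46 at day 3 and 3.32, 3.46, 3.48 and 3.80 at day 7. KO arrays read 3.46, 2.97, 3.14 and 3.35 in sham, 5.19, 4.24, 4.59 and 5.10 at day 1, 3.48, 3.46, 3.88, 3.76 and 3.46 at day 3 and 3.48, 3.47, 3.44 and 3.48 at day 7. All 4 day 1 KO arrays were above all WT arrays of day 1, though the lowest of the former and the highest of the latter nearly met (4.24 and 4.23), and the other groups lay near the floor except for day 3 WT replicate 2. Stat2 reached 4 in 7 arrays, 4 of them the day 1 KO arrays, so it passed the filter on low values through that group, and its differences from other groups are given as descriptions. The KO rise at day 1 was at least 1.55 ± 0.20 (adjusted p = 2.808e-07; 1.46 when the library labelled sham KO replicate 2 was left out) and was followed by a fall of 1.17 to day 3, while the WT difference at day 1 was 0.40 ± 0.19 (adjusted p = 0.07001). Irf7, the amplifier of type I interferon production, had means under 4 in every group, and against sham its difference passed the test in WT at day 7 and in no other injured group (0.95 ± 0.39, adjusted p = 0.04066). Irf7 reached 4 in 4 arrays, all of injured cord. It thus passed the filter on low values only through injured cords, and its differences from sham are given as descriptions. The day 7 call was lost without sham WT replicate 2 (0.82) or 4 (0.82) or day 7 WT replicate 3 (0.90) or 4 (0.76).

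Among the other antiviral effectors, Cmpk2 fell where others rose. Of the 10 tested, 7 were higher and 1 lower in WT at each day. In KO, 9, 8 and 9 were higher and 0, 1 and 0 lower. Of all tested probe sets in WT, 24%, 26.1% and 21.8% were higher and 28.9%, 35.7% and 31.7% lower. In KO, 20.9%, 28.2% and 19.8% of all were higher and 23.7%, 36.7% and 27.4% lower. Cmpk2 (probe set 1450484_a_at) encodes a mitochondrial nucleotide kinase that interferon induces beside Rsad2. Here it read 8.77, 8.77, 8.54 and 8.77 in sham WT, 7.73, 7.84, 7.88, 7.71 and 8.03 at day 1, 7.44, 6.85, 7.36 and 7.65 at day 3 and 8.02, 8.18, 8.12 and 8.13 at day 7. KO arrays read 8.75, 8.63, 8.93 and 8.74 in sham, 9.22, 8.31, 8.71 and 8.96 at day 1, 7.82, 7.63, 7.89, 6.75 and 7.76 at day 3 and 8.90, 8.53, 8.58 and 8.90 at day 7. All injured WT arrays were below all sham WT arrays, whereas day 1 and day 7 KO arrays overlapped sham KO. WT fell by 0.88, 1.39 and 0.60 (adjusted p = 0.000184, 4.699e-07 and 0.008584). KO differed by 0.04 ± 0.19 at day 1 and -0.03 ± 0.19 at day 7, and fell by 1.19 at day 3. Between injured days all 4 steps of Cmpk2 passed the test. It fell from day 1 to 3 and rose from day 3 to 7 in each genotype. Its other probe set did not pass the filter, so that these values rest on 1 probe set.

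Samd9l (probe set 1460603_at), an antiviral and growth-restraining factor, read 4.97, 5.42, 6.37 and 5.86 in sham WT, 7.25, 6.97, 6.78, 6.12 and 7.12 at day 1, 7.41, 7.32, 7.54 and 7.37 at day 3 and 7.54, 6.86, 7.92 and 7.65 at day 7. KO arrays read 6.71, 5.87, 6.63 and 6.53 in sham, 8.92, 7.72, 7.51 and 8.43 at day 1, 8.38, 7.85, 9.02, 8.18 and 7.54 at day 3 and 8.09, 7.82, 7.97 and 8.09 at day 7. KO arrays were above WT arrays without overlap at day 1 and, narrowly, at day 3, where KO replicate 5 and WT replicate 3 nearly met. Sham KO replicates 1, 3 and 4 also read above every sham WT array, while the library labelled sham KO replicate 2 (5.87) lay within the sham WT range. The sham difference between genotypes, 0.78, was the largest of the 31 genes and did not pass. It rose by 1.19, 1.75 and 1.84 in WT and 1.71, 1.76 and 1.56 in KO (1.52, 1.57 and 1.37 without the library labelled sham KO replicate 2).

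Mx1 (probe set 1451905_a_at), a dynamin-like GTPase against influenza virus, is known to be disrupted in many inbred mouse strains and read near the floor in WT. WT arrays read 3.19, 3.15, 3.15 and 2.88 in sham, 3.28, 3.48, 3.15, 3.15 and 3.18 at day 1, 2.66, 2.88, 3.15 and 3.35 at day 3 and 3.60, 3.38, 3.96 and 4.68 at day 7. KO arrays read 3.15, 3.15, 3.09 and 3.15 in sham, 5.93, 3.16, 3.62 and 4.98 at day 1, 4.03, 3.15, 4.90, 3.20 and 3.15 at day 3 and 4.82, 4.66, 4.41 and 5.99 at day 7. Day 1 KO replicate 2 read at the sham level, and the other day 1 KO arrays and all day 7 KO arrays read above it. Mx1 reached 4 in 9 arrays, all of them injured KO arrays except day 7 WT replicate 4. It thus passed the filter on low values through injured KO cord, and its differences from other groups are given as descriptions. Mx1 passed the test in KO at day 1 (at least 1.29 ± 0.42) and day 7 (at least 1.83 ± 0.42), and not in WT (0.15, -0.08 and 0.81). The day 1 call was lost without day 1 KO replicate 1 (0.78) or 4 (1.10), and the 2 values became 1.29 and 1.84 when the library labelled sham KO replicate 2 was left out. Rsad2 (viperin) had WT differences of 1.06, 1.16 and 1.33 that did not pass, the middle one 0.55 without day 3 WT replicate 2, and KO rises of 2.78, 1.70 and 2.48. Rtp4 rose by 1.62, 1.43 and 1.93 in WT and Xaf1, a cell-death factor, by 1.61, 0.93 and 1.24, with KO rises at day 1 of 2.74 and 2.40.

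Cd274 (probe set 1419714_at) encodes PD-L1, the checkpoint ligand that restrains T cells. WT arrays read 3.90, 3.17, 4.11 and 3.57 in sham, 5.33, 4.60, 4.44, 4.76 and 4.42 at day 1, 4.42, 4.68, 4.42 and 4.36 at day 3 and 4.82, 4.74, 4.97 and 5.18 at day 7. KO arrays read 4.42, 4.09, 3.88 and 4.00 in sham, 7.17, 5.36, 5.11 and 6.00 at day 1, 4.55, 4.79, 5.25, 4.76 and 4.66 at day 3 and 4.88, 4.66, 4.89 and 5.18 at day 7. Day 1 KO replicate 1 stood above all other arrays, and day 1 KO and WT overlapped. Cd274 rose by at least 1.02, 0.78 and 1.24 in WT and by 1.81, 0.70 and 0.80 in KO. Calls were lost in WT at day 3 without sham WT replicate 2 (0.61), in KO at day 3 without sham KO replicate 3 (0.63) or day 3 KO replicate 3 (0.59), and in KO at day 7 without sham KO replicate 3 (0.73) or day 7 KO replicate 4 (0.71).

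The 4 members with a value that did not pass the filter stayed near the floor in nearly all arrays. Oas2 read at most 3.14 and Mx2 at most 4.02. Oasl1 read 5.17 and 3.50 in day 1 KO replicates 1 and 4, 3.69 and 4.13 in day 3 KO replicates 1 and 3, and under 3 elsewhere. Cxcl9, a chemokine that interferon gamma induces, read 4.13 in day 3 KO replicate 3 and 3.45 in day 7 KO replicate 3, and under 3 elsewhere. The highest Oasl1 readings thus came from KO arrays in which the tested members were also high.

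**Figure D4:**
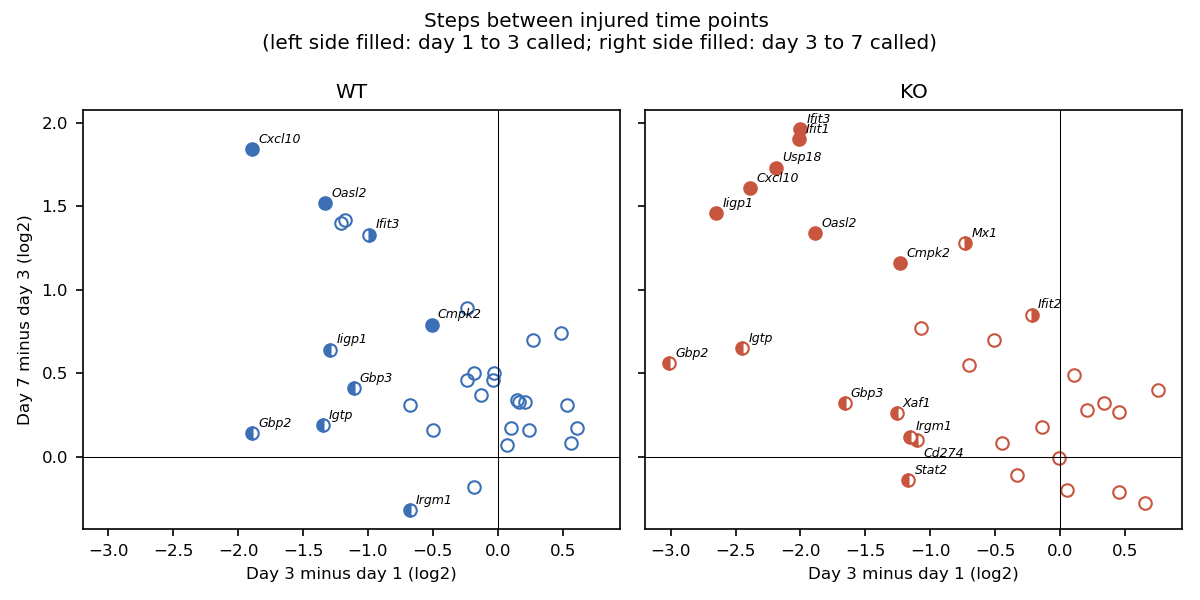
Log2 step from day 1 to day 3 (x axis) against the step from day 3 to day 7 (y axis) for the 31 tested genes in WT (left) and KO (right); a filled left side marks a called step on x, a filled right side a called step on y, and called genes are named. Both axes share the day 3 arrays, so no relation between them is read; Gbp2 lies far left and low, and Cxcl10 far left and high, in both genotypes.

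The difference between the genotypes was largest at day 1 by count and by median. In sham cord none of the 31 tested genes differed by limma's test (0.0529% of all tested probe sets did), 2 had an unadjusted p under 0.05, and the median difference was -0.01. With the library labelled sham KO replicate 2 left out, none differed either, and the median was 0.07. At day 1, 5 of the 31 were higher in KO and none lower, against 0.549% of all tested probe sets in either direction. The median was 0.90 against 0.00 over all tested probe sets, the difference was positive for 31 of 31 (30 without day 1 KO replicate 1 or day 1 WT replicate 3), and 23 had an unadjusted p under 0.05. At day 3 none passed (0.0366% of all), 4 had an unadjusted p under 0.05 and the median was 0.41, from 0.19 without day 3 KO replicate 3 to 0.56 without day 3 KO replicate 5. At day 7 none passed (0.0407% of all), 5 had an unadjusted p under 0.05 and the median was 0.46, from 0.26 without day 7 WT replicate 2 to 0.62 without day 7 WT replicate 4.

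The 5 genes higher in day 1 KO cord were Cmpk2, Stat2, Cd274, Samd9l and Igtp, whose array values are given above. Cmpk2 differed by 0.96 ± 0.18 (adjusted p = 0.004628), and 4 of 4 KO arrays were above all WT arrays. Against sham, Cmpk2 had fallen at day 1 in WT and did not pass the test in KO. Stat2 differed by at least 0.90 ± 0.19 (adjusted p = 0.01274), Samd9l by 1.30 ± 0.30 (adjusted p = 0.03253) and Igtp by 1.14 ± 0.27 (adjusted p = 0.03826), each with 4 of 4 KO arrays above all WT arrays. In sham cord the Samd9l difference was already 0.78, which did not pass. Cd274 differed by 1.20 ± 0.26 (adjusted p = 0.02619), with overlapping arrays, and by 0.78 without day 1 KO replicate 1. The Stat2 call counts a gene that passed the filter through the day 1 KO arrays; with no filter its adjusted p was 0.0276. Larger differences with more spread did not pass: Cxcl10 by 1.74 ± 0.43 (adjusted p = 0.05468), Usp18 by 1.70 ± 0.60 (adjusted p = 0.2968) and Ifit1 by 1.56 ± 0.60 (adjusted p = 0.3739). The smallest were those of Dhx58 (0.06 ± 0.25), Bst2 (0.15 ± 0.32) and Irf1 (0.22 ± 0.24).

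**Figure D5:**
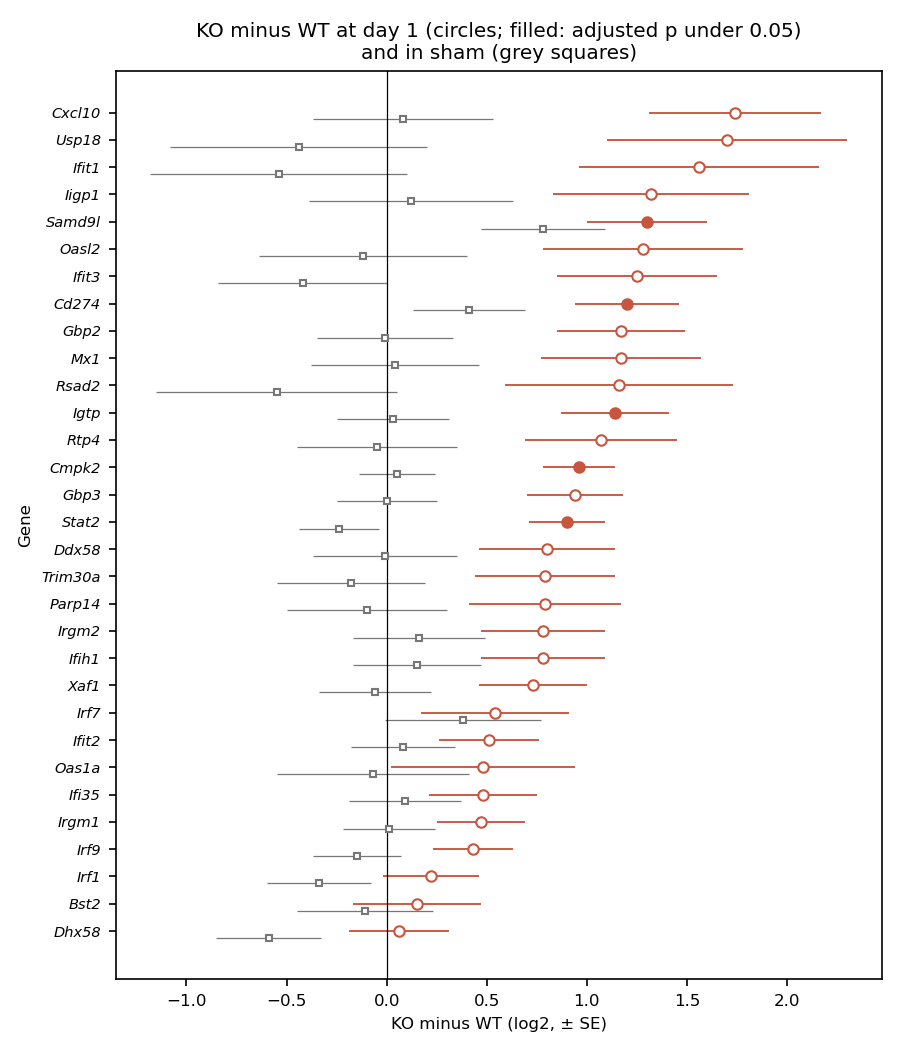
KO minus WT log2 difference ± SE (limma) of the 31 tested genes at day 1 (red circles, filled where the adjusted p is under 0.05) and in sham (grey squares), ordered by the day 1 difference. All day 1 differences are above 0, from 0.06 for Dhx58 to 1.74 for Cxcl10, and 5 are filled; sham differences lie on both sides of 0.

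This count of 5 depends on single libraries. It was 1 without day 1 WT replicate 2, day 1 KO replicate 1 or day 1 KO replicate 4, 2 without day 1 WT replicate 3, 3 without day 1 WT replicate 4, and 1 without both arrays of conflicting labels. It was 0 when only the arrays compared entered the fit or when arrays were grouped by that other label field, 2 with no filter on low values and 8 with array weights. Cmpk2 passed in each of the 9 fits that left out 1 day 1 array, with a highest adjusted p of 0.03834, Stat2 was lost in 3 of them, and Samd9l, Igtp and Cd274 in 5 each. The median over the 31 genes ran from 0.63, without day 1 KO replicate 1, to 1.07 in these fits. The array medians of the 2 groups overlapped, since KO replicates 2 and 3 (7.72 and 7.57) lay within the WT range of 6.82 to 7.73.

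Cell type markers were read in the same arrays. The mean of 8 monocyte and macrophage markers was 8.22 to 9.06 in day 1 WT arrays and 7.94 to 8.65 in day 1 KO arrays, and that of 7 homeostatic microglia markers 6.13 to 6.43 and 5.62 to 6.09, so the macrophage means overlapped and the microglia mean was lower in every day 1 KO array. At day 3 the macrophage mean was 9.02 to 9.99 in WT and 9.59 to 10.95 in KO. None of the genes in these lists passed a test between genotypes. Their part in the results was not tested. The 9 T and NK cell markers with a value read at most 3.34 in any array, near the floor.

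Tests over several conditions gave little. Over the mean of the 4 conditions, 2 of the 31 were higher in KO, against 0.126% of all tested probe sets: Samd9l by 0.84 ± 0.15 (adjusted p = 0.01332) and Cmpk2 by 0.47 ± 0.09 (adjusted p = 0.02304). Without the library labelled sham KO replicate 2 this count was also 2, and it was 1 without day 7 KO replicate 4 or day 1 KO replicate 4. The difference between the KO and WT responses to injury passed for none of the 31 at day 1 (0.0692% of all), where 12 had an unadjusted p under 0.05 and the median was 0.89. It passed for 1 gene without day 1 KO replicate 2. At day 3 (0% of all) and day 7 (0.00407% of all) none of the 31 passed, 3 had an unadjusted p under 0.05 each time, and the medians were 0.51 and 0.47. Without the library labelled sham KO replicate 2 these 3 medians were 0.76, 0.33 and 0.36. Leaving out 1 array, they ran from 0.62 (without day 1 KO replicate 1) to 1.08, from 0.19 (without day 3 KO replicate 3) to 0.64, and from 0.26 (without sham WT replicate 3) to 0.61.

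The members varied together from array to array within a group. For each gene, the deviation of each array from its group mean was taken. Over the 465 pairs of the 31 genes, the median correlation of these deviations was 0.68 over 34 arrays and 99.6% were positive, against a median of 0.01 and 51.1% over all tested genes. This is a description with no p, since the points share libraries. A gene's correlation with the mean of the other members ran from 0.34 for Cmpk2 and 0.53 for Stat2 to 0.95 for Rtp4 and Ifi35. Averaged over the members, day 3 KO replicate 3 deviated most, by 1.01, followed by day 1 KO replicate 1 at 0.82 and day 3 KO replicate 5 at -0.60.

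Genes outside the set whose deviations were most like the members' mean were Gbp7 (r = 0.95), Rnf213 (0.89), Phf11d (0.89), Zc3hav1 (0.88) and Ifi209 (0.87), over 34 arrays. The array means of other lists were set against the same measure. Other interferon-induced genes gave 0.97, inducers of interferon 0.81, monocyte and macrophage markers 0.58, T and NK cell markers 0.51 and neuron markers -0.58. The T and NK cell markers read near the floor, at most 3.34 in any array. Negative regulators gave 0.52, receptors and kinases 0.47, endothelial markers 0.44 and oligodendrocyte markers -0.45. The other lists lay between -0.28 and 0.37. The actin difference gave -0.40. The macrophage marker mean and this measure of RNA quality thus moved with the members' level within groups, and their part in it was not tested.

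Genes upstream of the set were read from lists fixed by name. Of 11 interferon ligands listed, 8 had a value and none passed the filter, and their values ran from 2.17 to 2.90, the highest in Ifnb1. The arrays therefore read no ligand above the floor, which does not show that none was made. Of 7 tested receptors and kinases, 5, 4 and 6 rose in WT at days 1, 3 and 7 and 5, 6 and 6 in KO, and none fell against sham. Of all tested probe sets, 24%, 26.1% and 21.8% rose in WT and 20.9%, 28.2% and 19.8% in KO. Ifnar2, the signalling chain of the type I receptor, rose by 0.54, 1.46 and 1.62 in WT, Ifngr1 by 0.57, 1.20 and 1.53, and Ifnar1 by 0.59, 1.03 and 0.83.

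Of 15 tested inducers of interferon, 11, 11 and 13 rose and 1, 0 and 0 fell in WT at days 1, 3 and 7, where 24%, 26.1% and 21.8% of all tested probe sets rose and 28.9%, 35.7% and 31.7% fell. Tlr7, the endosomal sensor of single-stranded RNA, rose by 2.70, 4.49 and 5.06, and Irf8, a factor of myeloid cells, by 1.62, 3.06 and 4.29. In KO, 8, 13 and 12 rose and 0, 1 and 1 fell (20.9%, 28.2% and 19.8% and 23.7%, 36.7% and 27.4% of all). Of 7 tested negative regulators, 5, 5 and 4 rose and 1 fell each time in WT, against the same WT shares of all probe sets, among them Socs3, an inhibitor of JAK kinases, by 6.66, 5.92 and 3.94, and Ptpn6, a phosphatase of blood cells, by 2.29, 3.51 and 4.01. Socs3 was thus highest at day 1, and Tlr7 and Irf8 at day 7.

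Of 32 other interferon-induced genes tested, 27, 28 and 29 rose and 1 fell each time in WT, against the same shares, the last being Adar (by 0.49, 0.80 and 0.78). In KO, 29, 30 and 30 rose. Ifi30, a lysosomal thiol reductase, rose by 2.89, 4.33 and 3.87 in WT, Ifi204, a DNA sensor, by 2.93, 3.90 and 4.04, and Ifitm1, a membrane protein that blocks virus entry, by 3.42, 3.97 and 2.25. None of the 32 passed a test between genotypes, and their median KO minus WT difference at day 1 was 0.35, against 0.90 for the 31 members.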

How the data were processed

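Total RNA of 34 thoracic cords was hybridised to Affymetrix arrays, per the labels. The authors deposited log2 values, computed with GCRMA per the submitters' processing notes (version not given in the sources used here), and these were used as given. Arrays were grouped by title. Gene symbols came from the platform annotation, which can be old: of 45101 probe sets, 34945 named 1 gene, 932 several and 9160 none, and 64 were controls.

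The members and gene lists were chosen with earlier results of these data known. Probe sets that reached 4 on the log2 scale in 4 or more arrays (24573) entered 1 limma 3.58.1 fit (R 4.3.3, lmFit and eBayes) of 8 group means over 34 arrays, with 26 residual degrees of freedom. P-values were adjusted over all tested probe sets by Benjamini-Hochberg, and called means an adjusted p under 0.05. The fit was checked on simulated data. Errors are limma's SE. The number of arrays limits the precision, and no 2 arrays were identical. Array values are printed for the members with the largest and the smallest WT difference in each role group, and for members past the threshold between genotypes, or the 3 with the smallest p where fewer passed. Alternatives changed the filter, probe sets, prior, weights, normalization, grouping and arrays. Promoters are RefSeq's.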

Additional observations from a re-analysis of the deposited data

Results flagged for a closer look

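Among the printed members and the members' median, 152 groups of 4 or 5 arrays were checked for a single array far from the rest by Dixon's criterion, which chance alone meets in about 1 in 20 groups, and 15 met it. The median of the tested members was 8.53 in day 7 KO replicate 4, where the other 3 arrays lay between 8.06 and 8.11, and in the same array Ifit2 read 10.23. Cxcl10 read 3.69 in sham WT replicate 2, 4.48 in day 3 WT replicate 2 and 3.99 in the library labelled sham KO replicate 2. Irf9 read 5.22 in that same library. Each of these 4 readings was the lowest of its group. Cmpk2 read 8.54 in sham WT replicate 3 and 6.75 in day 3 KO replicate 4, both the lowest of their group. Oasl2 read 5.32 in day 1 WT replicate 3, below the other 4 arrays. Stat2 read 4.36 in day 3 WT replicate 2, above the other 3.

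Readings near the floor made up the rest. Dhx58 read 3.73 in sham WT replicate 3, 3.41 in day 1 WT replicate 3 and 4.29 in day 3 WT replicate 4. Mx1 read 2.88 in sham WT replicate 4 and 3.09 in sham KO replicate 3. Where values lie this close together the criterion is met by differences too small to read.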

How the results depend on the processing

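The counts of members called against sham stayed within 1.5 times their main value in every alternative, and no count or named member changed direction. Counts between injured days and between genotypes moved. For WT day 3 against day 1 (main count 8) the count was 5 with no filter, 0 with arrays grouped by source name and time, 4 without the 2 arrays of conflicting labels, and 4 to 10 leaving out 1 array. For WT day 7 against day 3 (4) it was 2 with no filter, 1 grouped by source name and time, and 2 to 4 leaving out 1 array. For KO day 7 against day 3 (9) it was 5 with only the arrays compared, 5 grouped by source name and time, and 3 to 11 leaving out 1 array. For KO against WT at day 1 (5) it was 2 with no filter, 8 with array weights, 0 with only the arrays compared, 0 grouped by source name and time, 1 without the arrays of conflicting labels, and 1 to 6 leaving out 1 array. At day 7 (0) it was 1 with array weights. For the mean of the conditions (2) it was 1 with no filter, 6 with array weights, 0 grouped by source name and time, 1 without the arrays of conflicting labels, and 1 to 3 leaving out 1 array. For the difference of responses at day 1 (0) it was 2 with array weights and 0 to 1 leaving out 1 array. The grouping by source name and time places 2 arrays that resemble day 1 among day 7 and sham; the cause of the other moves was not tested.

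Of 198 called values of single members, 37 lost their call when arrays were grouped by source name and time, 15 with only the arrays compared, 13 with no filter, 11 without the arrays of conflicting labels, and 1 each with array weights and quantile normalization. With the replicate number as a block, 2 lost it, and the count at day 1 between genotypes was 4. Same-numbered arrays of different groups correlated at -0.454 to 0.43 in 113 pairs (median 0.005, 21 over 0.1), so the numbers do not pair the arrays. The 4 or 5 arrays of a group and the floor of the signal limit what can be read.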
